A study of Mus musculus with 2 samples.

Results

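Endothelial cells line the blood vessels of a tumour, and 87 barcodes carried their markers among 13590 barcodes that passed filters in 2 single-cell RNA libraries of mouse tumours. A member had at least 500 detected genes, at most 20% mitochondrial unique molecular identifiers (UMIs), 0 UMIs of Ptprc (the pan-leukocyte antigen CD45), and at least 3 UMIs summed over Pecam1, Cdh5, Cldn5, Gpihbp1 and Kdr with at least 2 of these genes detected. There were 50 members of 7210 barcodes in the PKCi library and 37 of 6380 in the CON library. Members were thus chosen by the measured levels of these markers. The tumours were raised subcutaneously in C57BL/6 mice by injecting 1000000 CMT167R cells per mouse. CMT167 is a mouse lung carcinoma line, and the labels describe CMT167R as resistant to anti-PD1. Mice of the PKCi group received the compound labelled PKCi at 3 mg/kg each day by intraperitoneal injection, and mice of the CON group received control solvent. Tumours were collected once control tumours had reached 400 mm3. Each treatment had 1 library, and neither the number of mice behind a library nor their age was given in the sources used here. No test between treatments was therefore possible. A ratio below compares these libraries, and its 95% interval covers counting error only.

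Endothelial cells of a growing tumour divide and sprout in answer to vascular endothelial growth factor (VEGF), which acts through the receptor encoded by Kdr. A leading tip cell extends the sprout, stalk cells follow under Notch signalling, and the new tube is sealed by the adhesion molecules VE-cadherin (Cdh5), PECAM-1 (Pecam1) and claudin-5 (Cldn5) and covered by pericytes. Gpihbp1 carries lipoprotein lipase to the capillary surface. The same cells admit leukocytes into the tumour through selectins, ICAM-1 and VCAM-1, display antigen on MHC class I, and turn on flow-responsive factors of the Kruppel-like family.

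The members were not uniform, and a core of 21 PKCi and 11 CON barcodes matched the endothelial label best. A core barcode had the 5 rule genes at 1000 or more CPM (UMIs of the gene divided by all UMIs of the barcode or sum and scaled to 1e6), Krt8 plus Rhox5, which the carcinoma cells carry, under 250 CPM, and at least 1 UMI of Xist, a nuclear RNA of female cells. These limits were set after the data had been seen. The 25 genes with the highest ratio of the core to all other passing barcodes were mostly known endothelial genes, and 3 of them were rule genes. Their levels in the core were 1675 to 4469 times those in the rest. Robo4, an endothelial guidance receptor, stood at 167 CPM in the PKCi core and 250.4 CPM in the CON core and was detected in 21 of 21 and 11 of 11 barcodes. Robo4 was found in 0 of 400 barcodes with Ptprc sampled from each library, which allows a share with a UMI of up to 0.75% and does not limit the share that expresses it. The same leukocyte barcodes, at median depths of 11503 and 8556 UMIs against 23338 and 23437 in the core, held Cdh5 in 4 and 7 barcodes. The adhesion receptor gene Adgrl4 was at 347 and 309 CPM in the PKCi and CON core and at 0.149 and 0.0633 CPM in the other barcodes of the same libraries. The endothelial transcription factor Sox18 stood at 236 CPM in the PKCi core and 283 CPM in the CON core. The homeobox gene Hoxb9 had the highest ratio to the rest and was detected in 14 of 21 and 9 of 11 core barcodes. Igfbp3, which binds insulin-like growth factors, stood at 5823 CPM in the PKCi core and 4825 CPM in the CON core, against 3.07 and 0.900 CPM in the rest.

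Promoters of 2 defining genes follow as the sequence context of these markers, from RefSeq on GRCm38.p6. They are the 250 bases before the RefSeq start, read in the direction of the gene, with AGGAAG or its reverse complement CTTCCT in capitals. AGGAAG holds the GGAA centre that ETS family factors such as Erg and Fli1 bind. They were chosen because each holds the motif and lies outside the gene in the GENCODE annotation. Adgrl4 lies at chr3:151437887-151545086 in the gene annotation and its promoter at chr3:151437632-151437881 on the plus strand. Grrp1 has its promoter at chr4:134254107-134254356 on the minus strand, with 2 matches.
Adgrl4: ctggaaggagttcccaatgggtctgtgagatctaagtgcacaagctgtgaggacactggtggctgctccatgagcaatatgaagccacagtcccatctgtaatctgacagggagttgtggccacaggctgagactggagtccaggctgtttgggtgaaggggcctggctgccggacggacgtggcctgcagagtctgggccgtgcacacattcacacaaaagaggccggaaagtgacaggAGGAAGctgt
Grrp1: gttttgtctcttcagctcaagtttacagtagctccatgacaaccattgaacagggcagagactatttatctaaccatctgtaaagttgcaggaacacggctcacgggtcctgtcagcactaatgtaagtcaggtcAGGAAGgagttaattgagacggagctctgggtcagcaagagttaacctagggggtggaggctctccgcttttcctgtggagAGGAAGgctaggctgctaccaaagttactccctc

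Of the 22 defining genes that were not rule genes, 15 matched the promoter table, with 19 promoters, and 8 of those promoters (42.1%) held the motif on either strand. The same 6 letters occurred in 29.5% of all 32851 promoters of the table. Cldn5 and Kdr were the rule genes in the table, and neither promoter held the motif. A match is a description of the letters only.

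Besides the core, the rule took in 3 other kinds of barcode. A low-marker set of 8 PKCi and 10 CON barcodes had the rule genes under 1000 CPM, with a median of 88.2 and 57.1 CPM and a median depth of 70011 and 52596 UMIs. Their Krt8 plus Rhox5 stood at 433 and 924 CPM, and Xist was found in 2 of 8 and 1 of 10. The set was mixed, since 2 PKCi barcodes and 1 CON barcode were shallower, at 6801, 11643 and 12205 UMIs, with the rule genes at 859 to 901 CPM. The PKCi barcode of 6801 UMIs held 13380.4 CPM of the pericyte gene Rgs5, and that CON barcode held 23351 CPM of Lyz2, lysozyme of myeloid cells. The low-marker barcodes alone held 41.3% of all member UMIs in the PKCi library and 61.2% in the CON library, so the sums over all 87 members are in large part theirs. A set of 18 PKCi and 15 CON barcodes had the rule genes at 1000 CPM or more and 0 Xist UMIs, with Krt8 plus Rhox5 at a median of 467 and 79.9 CPM and at 250 CPM or more in 13 and 7 of them. Being shallow, many of these met the rule with few UMIs, down to 3. The remaining 3 PKCi barcodes and 1 CON barcode had Xist and the rule genes at 1000 CPM or more with Krt8 plus Rhox5 at 266 to 581 and 257 CPM. Scrublet called 0 PKCi members and 1 CON member doublets, none of them in the core.

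**Figure D1:**
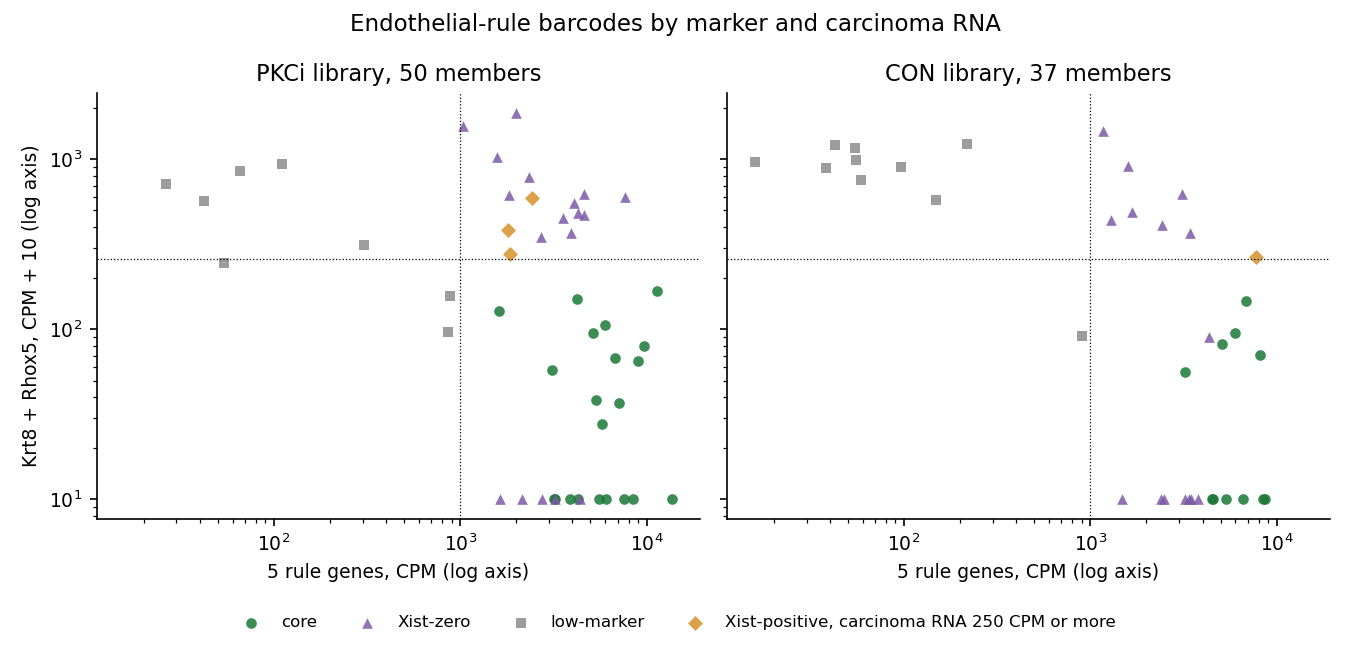
Each point is 1 barcode that met the endothelial rule, in the PKCi library (left, 50 barcodes) and the CON library (right, 37 barcodes), by the summed level of the 5 rule genes in CPM and by Krt8 plus Rhox5 in CPM + 10, both on log axes. Dotted lines mark 1000 CPM of the rule genes and 250 CPM of Krt8 plus Rhox5, and the 21 PKCi and 11 CON core barcodes lie at the lower right.

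The threshold of the rule ran through the low-marker and the Xist-zero barcodes. Exactly 3 rule-gene UMIs were carried by 5 PKCi and 9 CON members, of which 2 and 2 were Xist-zero, with a median Krt8 plus Rhox5 of 562 and 897 CPM and 0 with Xist. Just outside stood 16 PKCi and 13 CON barcodes with 1 UMI of each of 2 rule genes, of which 1 and 0 had Xist, and 34 and 44 barcodes with 3 or more UMIs of a single rule gene. A further 6 PKCi and 5 CON barcodes met the marker rule but held Ptprc.

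The rule genes themselves, which chose the members and are given as a description, were carried widely in the core. All 5 were detected in 20 of 21 PKCi and 11 of 11 CON core barcodes, and their sum had a median of 5730 CPM (lowest 1605, highest 13725) and 5973 CPM (lowest 3233, highest 8649). Pecam1 stood at 1009 and 1199.8 CPM, Cdh5 at 1376 and 1385 CPM, and Gpihbp1 at 1733 and 1808 CPM in the PKCi and CON core. Cldn5 stood at 1825 CPM in the PKCi core and 1242 CPM in the CON core, where 1 barcode held 41.9% of its UMIs. Kdr was at 234 CPM in the PKCi core, against 439 CPM in the CON core, a ratio of 0.532 (0.414 to 0.684). The median barcode held 181 CPM of Kdr in the PKCi core and 424 CPM in the CON core.

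The Xist-zero barcodes shared the endothelial markers but differed from the core in the make-up of their RNA. They held a median of 2559 UMIs (1287 to 14694) in the PKCi library and 3644 UMIs (1617 to 12510) in the CON library. Mitochondrial UMIs made up 0.419% and 0.322% of their RNA, against 1.64% and 2.29% in the core of the same libraries. Ribosomal protein genes made up 32.8% and 31.1%, against 16.5% and 13.6% in the core. Malat1, another nuclear RNA, had a median of 651 and 598 CPM in them, against 3994 and 10112 CPM in the core. At the core level of Xist, 33.7 and 49.3 UMIs would have been counted over the PKCi and CON Xist-zero barcodes, and 0 were, which by choice of the set is no finding.

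Other endothelial genes stood lower in the Xist-zero barcodes than in the core by different amounts. Plvap, which forms the diaphragms of vessel pores, stood at 0.560 of its core level in the PKCi library and 0.579 in the CON library. Flt1, a VEGF receptor that binds the ligand without strong signalling, was at 146 and 66.9 CPM, compared with 1083 and 601.5 CPM in the core. Sparc, a matrix protein of tumour vessels, was at 2104 and 2825 CPM, compared with 6650 and 7023 CPM in the core. Low mitochondrial share was not limited to these members: 388 PKCi and 194 CON barcodes outside the members were as shallow, had under 1% mitochondrial UMIs and lacked Xist and Ptprc, and their Krt8 plus Rhox5 stood at a median of 605 and 585 CPM. What these barcodes are was not tested, and the levels that follow were taken from the core unless all members are named.

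**Figure D2:**
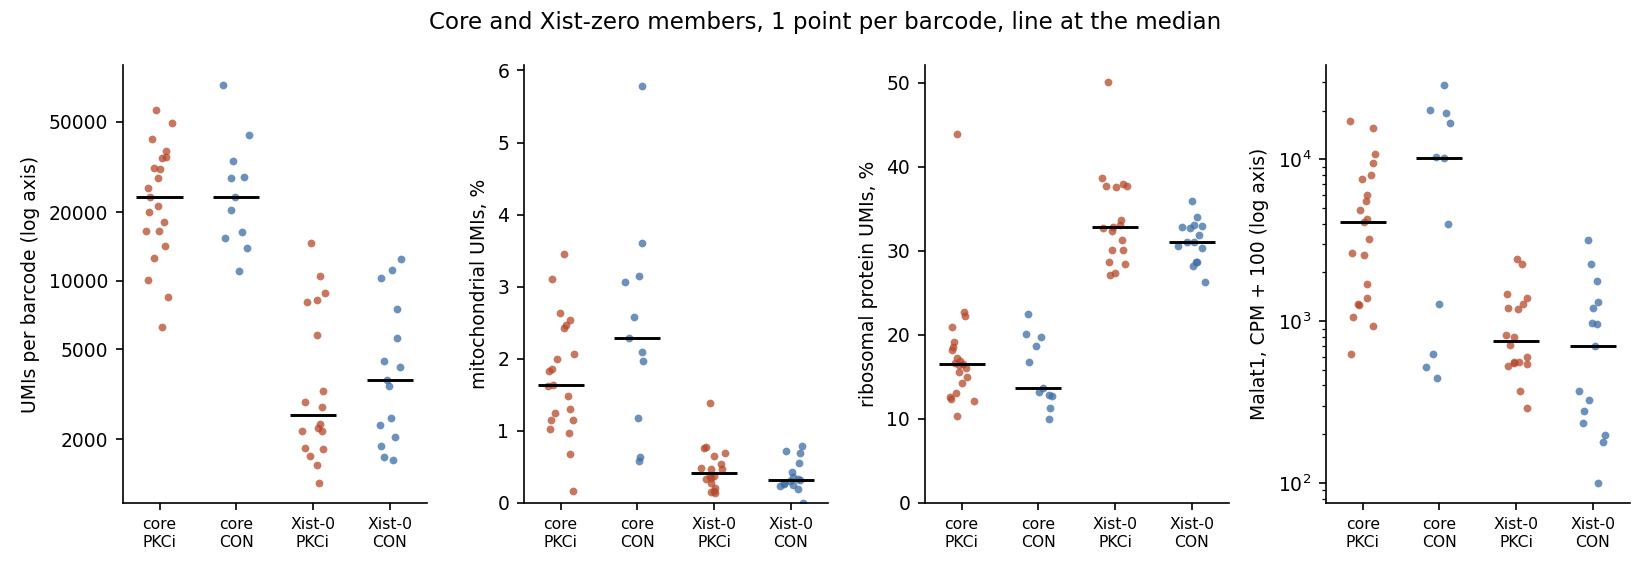
Points are single barcodes of the core (21 PKCi, 11 CON) and of the Xist-zero set (18 PKCi, 15 CON), and lines mark medians, for UMIs per barcode (log axis), mitochondrial share in percent, ribosomal protein share in percent and Malat1 in CPM + 100 (log axis). Within each library the Xist-zero median is lower for UMIs, mitochondrial share and Malat1 and higher for the ribosomal share.

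Endothelial barcodes made up a small share of both libraries. All members were 0.693% of passing barcodes in the PKCi library (exact 95% interval 0.515 to 0.913%) and 0.580% in the CON library (0.409 to 0.798%), a ratio of 1.20 (0.766 to 1.88). Core barcodes were 0.291% (0.180 to 0.445%) and 0.172% (0.0861 to 0.308%), a ratio of 1.69 (0.779 to 3.88). The Xist-zero barcodes were 0.250% and 0.235%, a ratio of 1.06 (0.505 to 2.26), and the low-marker barcodes had a ratio of 0.708 (0.243 to 1.99). Each of these intervals includes 1, so a difference in endothelial share was not detectable with these numbers of barcodes. Dissociation and droplet capture also set such shares.

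The libraries as a whole held 229219749 UMIs in 7457 PKCi barcodes and 222641855 UMIs in 6688 CON barcodes, with medians of 29763 and 33217 UMIs in passing barcodes. Of the barcode sequences, 20 occurred in both libraries, and none of these was a member. The core sums held 539066 and 307547 UMIs, and the deepest CON core barcode held 72689 of the CON UMIs. It was 1 of 4 CON core barcodes with 3 or more UMIs of the proliferation gene Mki67. The other such CON barcodes held 43609, 28293 and 20473 UMIs, and the 2 such PKCi barcodes held 49538 and 20074 UMIs. Barcodes of this kind thus make up a larger part of the CON core sum, and every core ratio below compares sums that differ in this way.

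The core differed between treatments by 2-fold or more in few genes. Of 4760 genes with at least 30 UMIs over both core sums, 188 (3.95%) were 2-fold or more higher in the PKCi core and 202 (4.24%) 2-fold or more lower, with a median log2 ratio of -0.06 over all of them. At 1.5-fold, the limit used for gene lists below, 503 genes (10.6%) were higher and 693 (14.6%) lower, and these shares are the background for each list count. The 12 highest genes were led by the transcription factor Klf4 and also held the VEGF family ligand Pgf. The 12 lowest held Tyms, which makes thymidylate for DNA synthesis, and Id3, a target of BMP signalling.

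Klf4, a Kruppel-like factor that is turned on by shear stress in endothelium, had the highest ratio (chr4:55527143-55532466, minus strand). Its level was 497 CPM in the PKCi core (268 UMIs) and 68.3 CPM in the CON core (21 UMIs), a ratio of 7.28 (4.67 to 11.96). On the log2 scale it was 2.83, and 1.96 without the barcodes that held 3 or more UMIs of the proliferation gene Mki67. The barcodes overlapped, with a median of 269 CPM in the PKCi core (lowest 0, highest 3688) and 13.8 CPM in the CON core (lowest 0, highest 427), and 7 of 21 PKCi barcodes lay above the highest CON barcode. Klf4 was also higher in the PKCi library outside the endothelium, by 2.34-fold in other barcodes without Ptprc, 2.52-fold in barcodes with Ptprc and 2.48-fold in fibroblast-pericyte barcodes. Klf2, its relative with the same flow response, stood at 1187 CPM in the PKCi core and 397 CPM in the CON core (ratio 2.99, 2.46 to 3.66), but the median barcodes held 420.0 and 385 CPM.

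Pgf, placental growth factor, which binds Flt1, was also among the 12 highest (chr12:85166635-85177790, minus strand). Its level was 373 CPM in the PKCi core and 91.0 CPM in the CON core, a ratio of 4.10 (2.75 to 6.32). Pgf was detected in 14 of 21 PKCi and 5 of 11 CON core barcodes, against 14 and 40 of the 400 sampled leukocyte barcodes of each library. The median was 121 CPM in the PKCi core (highest 1064) and 0 in the CON core (highest 670), so the ranges overlapped and 4 PKCi barcodes exceeded every CON one. Outside the endothelium the ratio was 0.429 in other barcodes without Ptprc, 0.185 in barcodes with Ptprc and 1.15 (0.821 to 1.61) in fibroblast-pericyte barcodes.

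Other genes among the 12 highest were spread over adhesion, growth and chromatin roles. Itgav, the integrin alpha V subunit of sprouting endothelium, stood at 243 CPM in the PKCi core and 61.8 CPM in the CON core (ratio 3.93), with medians of 171 and 48.8 CPM. Bcr, a GTPase regulator, stood at 230.0 and 55.3 CPM (ratio 4.16), and 10 of 21 PKCi barcodes lay above the highest CON barcode. Odc1, which starts polyamine synthesis, stood at 527 and 163 CPM (ratio 3.24), with 10 PKCi barcodes above every CON one. Its ratio was 0.961, 0.908 and 0.954 in the 3 comparison sets, and Bcr's was 1.14, 1.25 and 1.08. Tcim stood at 625 and 179 CPM (ratio 3.50), Fgfr1, a fibroblast growth factor receptor, at 284 and 84.5 CPM (ratio 3.36), and the histone demethylase gene Kdm5b at 90.9 and 16.3 CPM (ratio 5.59). In the same 3 comparison sets, the ratios were 1.66, 1.69 and 1.58 for Tcim and 1.33, 1.11 and 1.34 for Itgav. For Fosb they were 1.66, 2.07 and 1.87, and for Cebpb 0.873, 0.877 and 0.887. Cebpb (3.68), Depp1 (3.57), Fosb (3.41) and the heat shock gene Hspa1a (3.27) complete the 12. Depp1 depends on the core definition, since its log2 ratio was 1.76 in the core and -1.16 when Xist was not required. Hspa1a came from few barcodes, since it was detected in 11 of 21 PKCi and 4 of 11 CON barcodes and reached 5773 CPM in 1 of the PKCi ones.

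The 12 lowest genes had ratios of 0.336 to 0.483. Tyms stood at 42.7 CPM in the PKCi core and 127 CPM in the CON core (ratio 0.336), and 2 of 21 PKCi barcodes lay above the CON median. Id3 stood at 198 and 445 CPM (ratio 0.446, 0.343 to 0.578), with medians of 140.0 and 271 CPM and overlapping barcodes. Its ratio in the comparison sets was 0.969, 0.808 and 1.21. Lgmn, a lysosomal protease, stood at 193 and 419 CPM (ratio 0.460), and Utrn, a cytoskeletal anchor, at 180.0 and 384 CPM (ratio 0.469). For Lgmn 1 of 21 PKCi barcodes exceeded the CON median, and 14 of 21 PKCi barcodes lay below the lowest CON level of Ak3, a mitochondrial adenylate kinase. Nfia, Fnbp1l, Pa2g4, Bzw2, U2surp and Sema6a were also among these genes.

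Immediate-early genes, which respond within minutes to growth factors, flow and stress and also to tissue dissociation, had the highest count of higher genes among the lists. Of 17 measured genes in the core, 14 were 1.5-fold or more higher in the PKCi core and 0 lower, against 10.6% of all genes higher, with a median log2 ratio of 1.07. Jun stood at 1668 and 660 CPM in the PKCi and CON core (ratio 2.53), Fos at 1822 and 1086 CPM (1.68) and Fosb at 588 and 172 CPM (3.41). Atf3, a stress-induced factor, stood at 928 and 309 CPM (3.00, 2.41 to 3.78), with a median of 469 CPM in PKCi barcodes and 59.6 CPM in CON barcodes. Ier3 was on the other side at 341 and 445 CPM (0.766). The summed list ran from 1591 CPM through a median of 10734 to 84189 CPM over the PKCi core barcodes and from 986 through 5813 to 19727 CPM over the CON ones, so the groups overlapped and 6 PKCi barcodes exceeded every CON barcode.

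The list had higher members in other cells of the PKCi library too, with smaller medians. Over the 21 genes measured there, the median log2 ratio was 0.43 in other barcodes without Ptprc, 0.60 in barcodes with Ptprc and 0.64 in fibroblast-pericyte barcodes. The medians over all genes measured in these sets were -0.02, 0.04 and -0.05. In the Xist-zero endothelial barcodes 3 of 12 measured genes were higher and 4 lower, with a median of -0.13. Over all 674 genes measured there, 92 were higher and 173 lower, with a median of -0.14. Heat shock genes, another mark of dissociation stress, had 4 of 11 higher and 0 lower in the core (median 0.17), among them Hspa1b (4.56), Hspb1 (2.69) and Dnajb1 (1.54). The part of dissociation in these values was not tested.

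**Figure D3:**
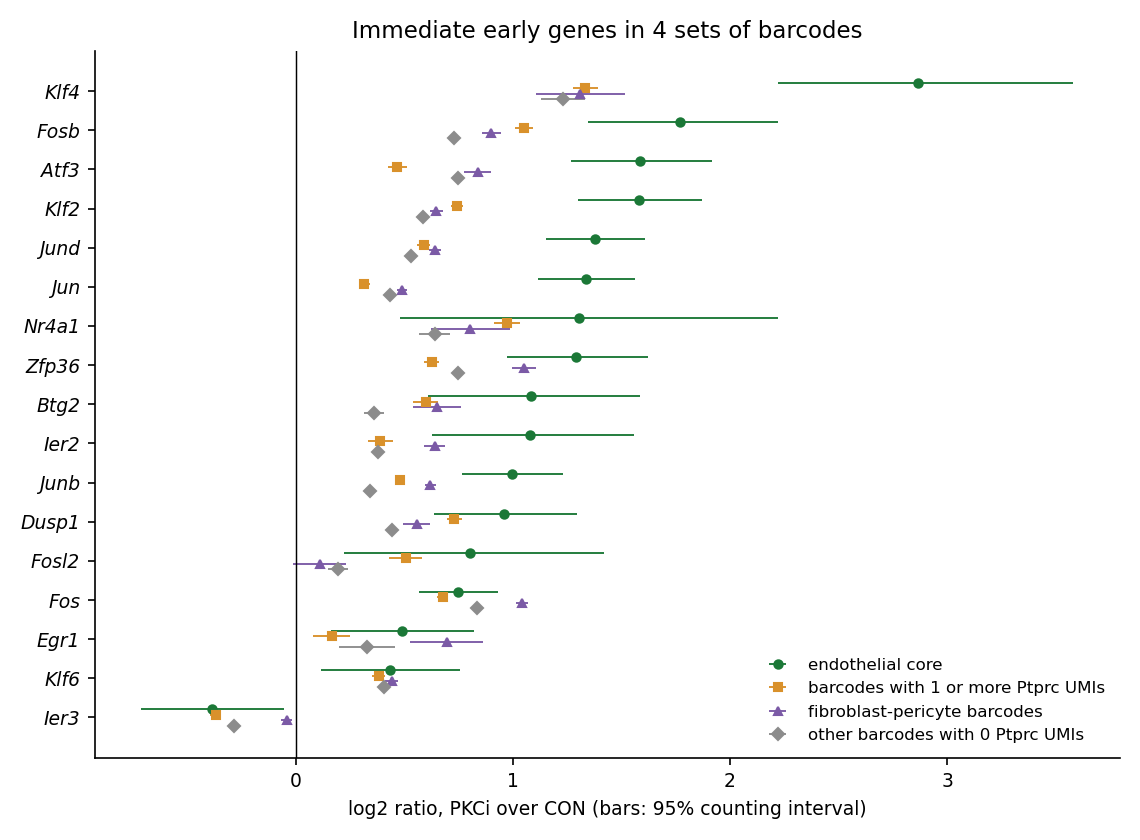
Log2 ratio of PKCi over CON for the 17 immediate-early genes measured in the endothelial core, in that core, other barcodes without Ptprc, barcodes with Ptprc and fibroblast-pericyte barcodes, with bars for the 95% counting interval. The core points of all genes but Ier3 lie to the right of 0 and Klf4 is the highest, and most ratios of the other sets are positive and smaller than that of the core.

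Genes of sprouting vessels were present in both cores and mostly similar. Of 18 tip cell genes, all measured, 5 were 1.5-fold or more higher in the PKCi core and 0 lower, with a median log2 ratio of 0.31. Rgcc, a cell cycle regulator of endothelium, stood at 707 and 247 CPM (ratio 2.86, 2.23 to 3.71), with medians of 585 and 89.4 CPM, and 1 CON barcode held 50% of the CON UMIs. Apln, the peptide apelin that tip cells secrete, stood at 616 CPM in the PKCi core and 380.4 CPM in the CON core (1.62, 1.31 to 2.02). Apln was detected in 19 of 21 PKCi and 6 of 11 CON core barcodes, against 31 and 23 of 400 leukocyte barcodes, with medians of 287 and 34.8 CPM. The potassium channel subunit gene Kcne3 (2.08), the endothelin receptor gene Ednrb (1.96) and Pgf were the other 3. For Kcne3 1 barcode held 50.7% of the PKCi and 1 barcode 55% of the CON UMIs, and for Ednrb 38.9% and 69.0%. For Apln 1 barcode held 53.8% of the CON UMIs. Angpt2, the vessel-destabilising angiopoietin, differed little at 505 and 478 CPM (1.06), as did Col4a1 at 3775 and 3925 CPM (0.962). Esm1 stood at 404 and 273 CPM (1.48) and Dll4, the Notch ligand of tip cells, at 276 and 221 CPM (1.25).

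Among VEGF receptor genes other than Kdr, Flt1 alone passed 1.5-fold. It stood at 1083 CPM in the PKCi core and 601.5 CPM in the CON core (ratio 1.80, 1.52 to 2.14), with medians of 1084 and 512 CPM. The lymphatic receptor gene Flt4 had a ratio of 1.05 and the co-receptor genes Nrp1 and Nrp2 ratios of 0.859 and 0.786. Of 6 measured genes of this family other than Kdr, 2 were higher and 1, Vegfc with 13 and 17 UMIs, lower at 1.5-fold. Among the Tie, apelin and sphingosine receptors, Apln was higher and Tek (66.8 and 110.6 CPM, ratio 0.604) lower, of 7 measured.

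**Figure D4:**
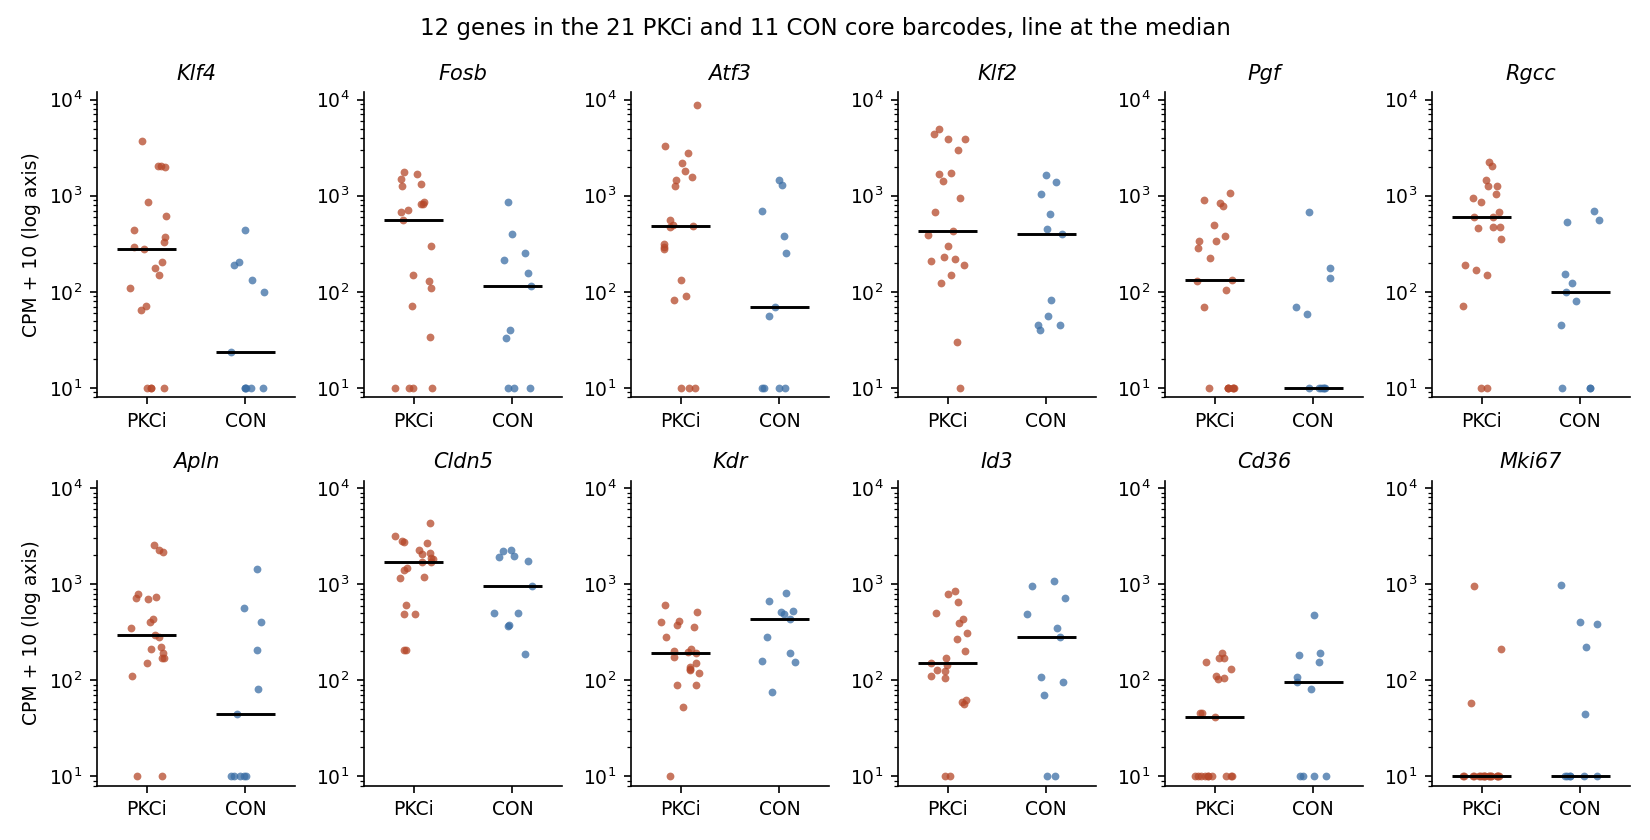
Level of 12 genes in each core barcode, in CPM + 10 on a log axis, with PKCi barcodes left and CON barcodes right and a line at the median. For Klf4, Pgf, Rgcc and Apln the PKCi median lies above the CON one, for Kdr, Id3 and Cd36 below it, and the barcodes of the libraries overlap for every gene.

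Genes of mature vessel types gave mixed values. Of 9 measured capillary genes other than the rule genes, 3 were higher and 3 lower (median log2 ratio -0.46). The fatty acid transporter Cd36 stood at 55.7 and 159 CPM (ratio 0.349), but 1 CON barcode held 69.4% of its CON UMIs, and Fabp4, a fatty acid binding protein, stood at 300.5 and 546 CPM (0.550), with 69.1% of its PKCi UMIs in 1 barcode. Sgk1, a serum-induced kinase, was higher at 209.6 and 91.0 CPM (2.30). Of 11 venous genes, 1 was higher and 2 lower. Vcam1, which arrests leukocytes, stood at 27.8 and 127 CPM (0.219) and Selp, P-selectin, had a ratio of 0.456, while the leukocyte receptor gene Icam1 stood at 193 and 97.5 CPM (1.98). For Icam1 the median barcode went the other way, at 55.0 and 104.5 CPM, and 1 barcode held 32.7% of its PKCi UMIs and 1 barcode 50% of its CON UMIs. Selp likewise had 60% and 64% of its UMIs in 1 barcode of each library. Vcam1 rested on 15 PKCi and 39 CON UMIs, with a median of 0 in both cores and 46.2% of its CON UMIs in 1 barcode. Ackr1, a defining gene of venules, had 1 UMI in each core.

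Arterial genes had 2 higher and 1 lower of 7 measured. Sox17, an arterial transcription factor, stood at 236 CPM in the PKCi core and 114 CPM in the CON core (ratio 2.07), with medians of 199 and 48.8 CPM, and the connexin gene Gja4 had 10 and 20 UMIs (0.285). Gja5 was at 0. The lymphatic list had Flt4 alone measured, with 1 and 0 UMIs of its master factor Prox1, and Pdpn, another lymphatic marker, was at 0 in both.

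Notch genes had 2 higher and 1 lower of 9 measured, with a median log2 ratio of 0.35. The endothelial receptor gene Notch4 stood at 145 and 87.8 CPM (ratio 1.65) and was detected above the CON median in 19 of 21 PKCi barcodes. The feedback gene Nrarp had a ratio of 1.51 and the target gene Hes1 of 1.49, whereas Rbpj, the DNA-binding partner of Notch, was lower at 33.4 and 87.8 CPM (0.380). BMP and TGF-beta genes had 2 higher and 2 lower of 13, with a median of 0.00. Acvrl1, the receptor ALK1, stood at 119 and 68.3 CPM (1.74) and Smad7, a pathway inhibitor, had 41 and 9 UMIs (2.60), beside the lower Id3. The co-receptor gene Eng stood at 417 and 416 CPM (1.00).

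Endothelial transcription factors had 3 higher and 0 lower of 15, namely Klf2, Klf4 and Sox17. Klf2 and Klf4 were also counted with the immediate-early genes and Sox17 with the arterial ones. Rgcc was likewise counted with both tip cell and capillary genes, so the list counts are not separate results. Erg, which keeps endothelial identity, stood at 217 and 231 CPM (0.940) and Fli1 had a ratio of 0.742.

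Genes of cell division had lower sums in the PKCi core, and few barcodes carried them. Of 16 measured G2/M genes, 15 were 1.5-fold or more lower and 0 higher, against 14.6% of all genes lower, with a median log2 ratio of -1.68. Of 9 S phase genes, 9 were lower (median -1.38). Mki67, the proliferation antigen, stood at 57.5 CPM in the PKCi core and 273 CPM in the CON core (ratio 0.211, 0.135 to 0.321), and 2 of 21 PKCi and 4 of 11 CON barcodes held at least 3 of its UMIs. These barcodes held 82.0% of the PKCi and 95.04% of the CON G2/M UMIs, and the median barcode held 242 and 417 CPM of the list. Top2a, which untangles replicated DNA, stood at 156 and 348 CPM (0.448). G2/M medians in the comparison sets lay between -0.02 and -0.16. After thinning each barcode to 5000 UMIs, 3 of 21 PKCi barcodes (14.3%, 3.05 to 36.3%) and 6 of 11 CON barcodes (54.5%, 23.4 to 83.3%) held 3 or more G2/M genes, and the exact intervals overlap. Unthinned, the shares were 66.7% and 81.8%. Thinned leukocyte barcodes held such genes in 44.5% and 38.1%. S phase genes met the same limit in 19.0% of PKCi and 45.5% of CON core barcodes after thinning, and in 81.0% and 90.9% before it.

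Antigen presentation genes were lower or flat in the PKCi core, and chemokine genes went both ways. Of 14 MHC class I genes, 6 were lower and 0 higher (median log2 ratio -0.47), but the main molecules differed less: H2-K1 stood at 1098 and 1408 CPM (0.780), H2-D1 at 1497 and 1896 CPM (0.790) and B2m at 2111 and 2296 CPM (0.920). H2-Q4 (0.462) and the peptide transporter Tap1 (0.554) were among the lower. The summed list had medians of 5859 and 6150 CPM per barcode and overlapping ranges. Ccl2, which draws monocytes, stood at 451 and 139.8 CPM (3.22), with 7 PKCi barcodes above every CON one. Cxcl9, a T cell attractant, stood at 165 and 764 CPM (0.216), yet 1 barcode held 74.2% of its PKCi UMIs and 1 barcode 80.4% of its CON UMIs. Interferon-response genes had 4 higher and 3 lower of 16, with Isg15 at 211.5 and 100.8 CPM (2.10), Irf7 with 42 and 2 UMIs, and Gbp3 at a ratio of 0.359.

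Genes of matrix, junctions, haemostasis and lipid uptake showed single differences within flat lists. Basement membrane genes had 1 higher and 1 lower of 16, with Sparc at 6650 and 7023 CPM. Fn1, fibronectin, stood at 633 and 269.9 CPM (2.34), with 43.4% of its PKCi and 60.2% of its CON UMIs in 1 barcode each. Junction genes other than the rule genes had 0 higher and 2 lower of 10, the scaffolds Tjp1 (0.609) and Magi1 (0.638). The clotting inhibitor Tfpi (0.331) and the ATP-cleaving ectoenzyme Entpd1 (0.459) were lower. Of 6 lipid uptake genes other than Gpihbp1, 2 were higher and 3 lower. Apold1, an early-response endothelial gene, stood at 338 and 110.6 CPM (3.05), with 8 PKCi barcodes above every CON one, and Scarb1, a lipoprotein receptor, had a ratio of 0.503. Hypoxia and glycolysis genes had 3 higher and 0 lower of 17 (median 0.15), against medians of -0.35, -0.32 and -0.37 in the comparison sets, and metallothionein and redox genes had 0 of 9 on either side (median 0.01), against -0.55, -0.63 and -0.63.

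Protein kinase C and inhibitor-of-apoptosis genes are the subjects of the series. Prkch, the isoform eta, stood at 269 and 419 CPM (0.641, 0.502 to 0.819). Xiap, which blocks caspases, stood at 76.1 and 133 CPM (0.571, 0.361 to 0.902), Birc5 at 64.9 and 169 CPM (0.384), and Xaf1, an antagonist of Xiap, at 70.5 and 29.3 CPM (2.41).

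Markers of several other cell types were near 0 in the core, while pericyte and fibroblast genes were present. Carcinoma, leukocyte, MHC class II and red cell lists had 0 measured genes, with Epcam and Krt18 at 0 UMIs and the leukocyte list at 83.5 and 91.0 CPM in sum. Low Krt8, Rhox5 and Ptprc were set by the choice of the core and the members, so they are no finding. Even over all members, 3 of the 6 carcinoma genes were detected in each library, so genes of that list at 0 say little. The platelet list stood at 163 and 166 CPM with 1 gene measured, Itgb3, an integrin subunit that endothelium also uses, while Pf4 had 5 UMIs in each core. Pericyte genes had 4 higher and 1 lower of 8 measured (median log2 ratio 0.77), and fibroblast genes 3 higher of 4 (1.15). They lay in few barcodes: Rgs5, a pericyte gene, reached 500 CPM in 4 of 21 PKCi and 1 of 11 CON core barcodes, which held 88.3% and 68.6% of the pericyte-list UMIs and 92.8% and 93.5% of the fibroblast-list UMIs. Without Kcnj8 and Abcc9, channel subunits whose UMIs were spread over more core barcodes, the pericyte shares were 99.6% and 100%. The CON barcode was the deepest of the core. Without these 5 barcodes, chosen after the data were seen, the median log2 ratio was 0.81 for immediate-early genes, -0.99 for G2/M genes, -0.26 for MHC class I genes and -0.00 for capillary genes with the rule genes included. With the deepest core barcode of each library left out instead, it was 1.26, -1.08, -0.17 and -0.09 for these 4 lists, and S phase genes stood at -1.53.

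Over all 87 members, 8213 genes were measured, of which 292 (3.56%) were 2-fold or more higher in PKCi members and 246 (3%) lower, and 957 (11.7%) and 888 (10.8%) passed 1.5-fold. Klf4 again led at 249.97 CPM in PKCi members and 24.7 CPM in CON members (ratio 10.1), and 6 of the 12 highest genes were shared with the core, namely Bcr, Fosb, Itgav, Kdm5b, Klf4 and Pgf. Of the 12 lowest, Tyms alone was shared. Immediate-early genes had 16 higher and 0 lower of 19 (median log2 ratio 1.13). MHC class I genes had a median of 0.16 over all members, against -0.47 in the core. The low-marker barcodes, rich in carcinoma RNA, hold a larger part of the CON sum than of the PKCi sum. Over the 42 PKCi and 27 CON members with the rule genes at 1000 CPM or more, the median log2 ratio was 0.99 for immediate-early and -0.56 for MHC class I genes, and Klf4 stood at 2.66.

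**Figure D5:**
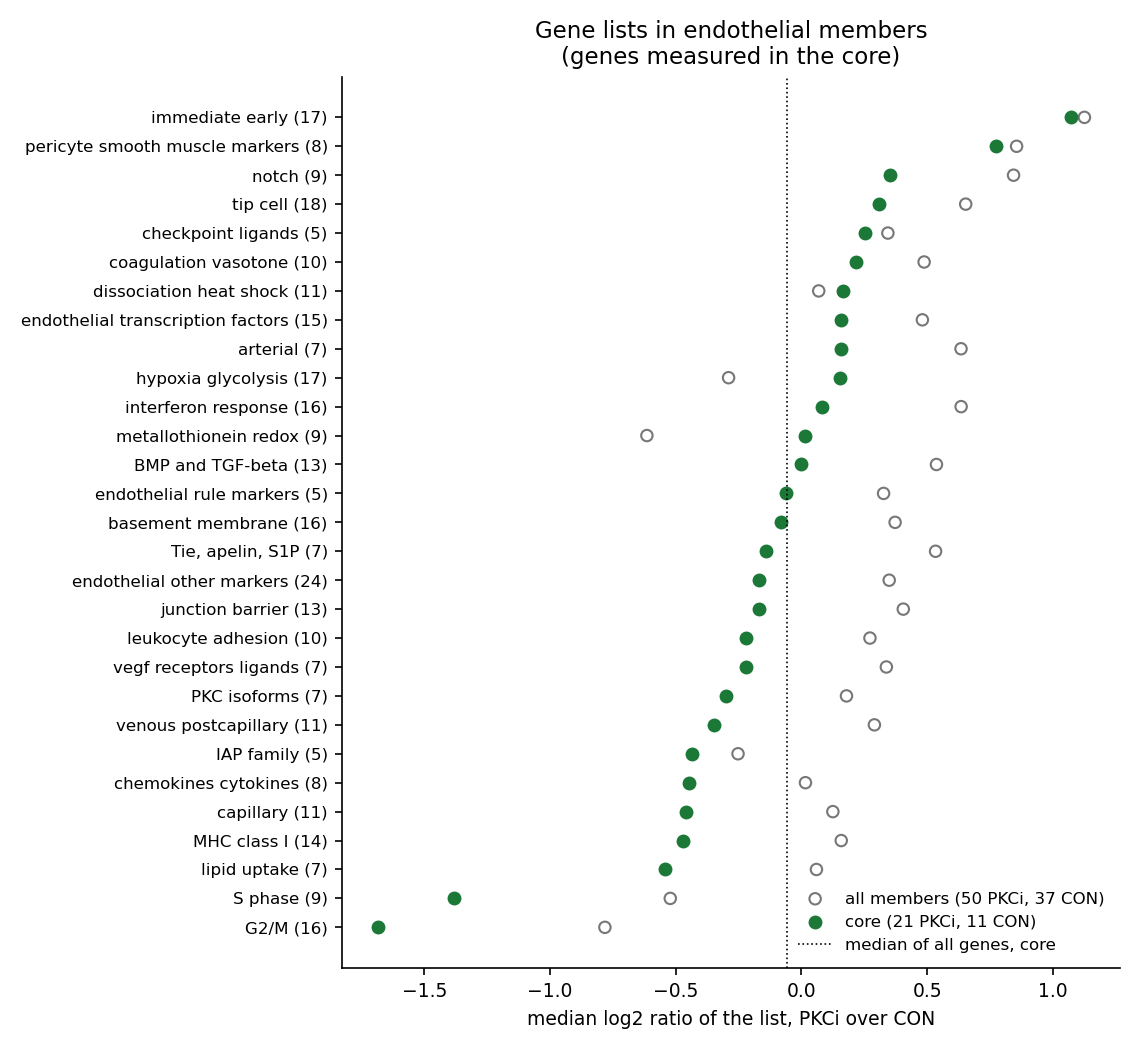
Median log2 ratio of PKCi over CON for each gene list with at least 5 genes measured in the core, rule genes included, with the dotted line at the median of all genes in the core. Filled points are the core, over the genes measured in the core (their number in brackets). Open points are all members, over the genes measured in all members, which can be more. Immediate-early genes lie at the top, at 1.07 in the core, and G2/M and S phase genes at the bottom, at -1.68 and -1.38.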

How the data were processed

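UMI counts per gene and barcode were deposited by the authors for 2 libraries, and per the file headers Cell Ranger 7.0.0 made them from 10x 3′ v3.1 libraries. The submitters' processing notes name GRCm38 and Seurat, and the role of Seurat is not given in the sources used here. Each file lists 32285 genes. No other normalisation was in the deposited counts.

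Filters and members followed the rule in the opening. UMIs were summed over the barcodes of a set in each library and scaled to CPM. Ratios are PKCi over CON with exact conditional 95% intervals, log2 ratios had 0.5 count added to each sum, levels had exact Poisson intervals and shares Clopper-Pearson intervals. PCR copies are collapsed by UMIs, yet UMIs of 1 barcode are not independent, so intervals and floors (3 counts) cover counting error only. Genes with at least 30 UMIs over both sums were measured. Calls were 2-fold for single genes and 1.5-fold for lists. With 1 library per treatment no test was run.

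Named genes were the 25 with the highest ratio of members (or of the core) to all other passing barcodes (at least 50 CPM and detection in 20% of barcodes in each library) and the 12 highest and 12 lowest PKCi over CON ratios. These highest and lowest genes needed 50 UMIs over both sums, 50 CPM in 1 sum, an interval without 1, 10% of the highest level of the other sets, detection in 20% of barcodes and at most 25% of UMIs from 1 barcode. Other genes come from the lists. Members and lists were chosen with earlier results of these data known, and the core after the data had been seen. Fibroblast-pericyte barcodes had 0 Ptprc UMIs and at least 3 UMIs over Pdgfra, Pdgfrb, Dcn, Lum and Rgs5 with 2 detected.

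Doublets were kept as in the rule and called with Scrublet in scanpy 1.11.5 at a rate of 0.06, which marked 1.83% of PKCi and 1.74% of CON barcodes. Python 3.11.15, numpy 2.4.6, scipy 1.17.1, pandas 2.3.3 and matplotlib 3.10.9 were used. The level and ratio steps were tested on simulated data. Alternatives changed the marker limits, scaling, gene minimum and core definition. Some genes that met the rule for named genes or belong to the lists are not reported here.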

Additional observations from a re-analysis of the deposited data

How the results depend on the processing

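No paired analysis was possible because there was 1 library per treatment. In the core, 363 of 373 alternative list medians stayed within a limit set for each list and 10 moved further. This limit came from the median width of the log2 counting intervals of the genes in the list. For gene values the limit was a fixed 1.5-fold, and 299 of 310 stayed within it, 10 moved and 1 reversed. Over all members 273 of 412 list medians stayed within their limits, 121 moved and 18 reversed. Immediate-early genes kept a positive core median (0.76 to 1.26) and G2/M and S phase genes a negative one (-1.80 to -0.99 and -1.68 to -1.31). These ranges cover only settings in which a list had at least 5 measured genes. Without barcodes of 3 or more Mki67 UMIs 26 lists met this limit, against 29 in the main setting. Those barcodes held 82.0% of the PKCi and 95.04% of the CON G2/M UMIs of the core. Few G2/M UMIs were thus left in that setting, so the range above says little on G2/M genes outside those barcodes. Klf4 ran from 1.96, without barcodes of 3 or more Mki67 UMIs, to 2.98 on the log2 scale. Share ratios stayed within the counting intervals of the main ones.

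Over all members, 292 genes were 2-fold higher and 246 lower. The counts higher became 450 with 10 marker UMIs, 677 as mean CPM per barcode, 1402 with the profile of other barcodes subtracted, 1038 without a gene minimum and 188 in the core. The counts lower became 541, 1117 and 1109 with mean CPM, subtraction and no minimum. Of the lists with at least 5 measured genes, 7 had a median 1.5-fold higher and 2 lower. Smaller lists passing it were lymphatic (2 genes, 1.38), carcinoma (2 genes, -0.75) and leukocyte (4 genes, -2.05). The number higher became 1 with 5 marker UMIs, 10 marker UMIs, 3 rule genes, Krt8 plus Rhox5 under 250 CPM, subtraction or rule genes at 1000 CPM, 3 with mean CPM or the deepest barcodes left out, and 2 in the core. The number lower became 1 with 5 marker UMIs or mean CPM, 6 with 10 marker UMIs or Krt8 plus Rhox5 under 250 CPM, and 21 with subtraction.

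All-member list medians that reversed were arterial (-0.16 with 5 marker UMIs, -0.34 with 10, -0.22 with 3 rule genes, -0.83 with subtraction), pericyte (-0.10 with 10 marker UMIs, -0.028 with 3 rule genes, -0.45 with subtraction), tip cell (-0.15, -0.049 and -0.73 under the same 3), Notch (-0.10 with 10 marker UMIs, -0.69 with subtraction) and interferon (-0.18 with 10 marker UMIs, -0.044 with 3 rule genes, -0.10 with Krt8 plus Rhox5 under 250 CPM, -0.0032 with mean CPM, -0.59 with subtraction). Metallothionein genes stood at 0.013 in the core, and the gene Lockd at 0.15 with mean CPM.

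In the core, lists higher became 1 without the carcinoma limit or the Xist requirement and 4 without barcodes of 3 or more Mki67 UMIs, and lists lower 4 without those barcodes or with mean CPM, against 2 and 2. Genes higher became 308 without those barcodes and 839 without a minimum, and genes lower 1455 without a minimum, against 188 and 202. Depp1 reversed to -1.16 without the Xist requirement. Thinning to 5000 UMIs brought the PKCi shares with G2/M and S phase genes to 14.3% and 19.0% and the CON S phase share to 45.5%. The cause was not tested. With 21 and 11 core barcodes, 1 deep barcode can set a level.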
